A study of Mus musculus with 2 samples.

Results

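The immunoproteasome and the genes that load peptides onto major histocompatibility complex (MHC) class I molecules were followed in the pancreas of newborn mice with and without a mutant Glis3 allele. The set holds 10 genes, read by 17 probes, of 16769 genes that could be named on the array and 41174 probes in all. They are Psmb8, Psmb9 and Psmb10, the activator subunits Psme1 and Psme2, the peptide transporter genes Tap1 and Tap2, Tapbp, B2m and H2-K1. The genes were chosen by the pathway they share and with the ratio of mutant over wild type on these same arrays known. That ratio is therefore given as a description, with no test. All non-control probes whose accession or symbol leads to 1 of the 10 genes were taken.

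The groups were whole pancreas of Glis3zf/zf mice, named Glis3KO on the samples, and of wild-type mice, each taken at postnatal day 3. Glis3 encodes a zinc finger transcription factor of the pancreas. RNA of 2 pups was pooled per genotype, and both pools were hybridised together on 2 Agilent arrays of 60-base probes with the dyes exchanged. On the first array the mutant was in Cy5 and the wild type in Cy3, and on the second the mutant was in Cy3 and the wild type in Cy5. Each genotype is thus 1 sample measured in both dyes. The spread between the arrays is technical, the spread between animals was not measured, and no p-value was computed. The sources used here do not give the strain, the sex of the pups or the nature of the allele, and nothing labelled shows in which cells the allele acts.

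Proteasomes cut proteins into peptides inside a barrel of stacked rings, the 20S core. In cells exposed to interferon gamma, and in many immune cells all the time, the catalytic subunits of the standard core are replaced by Psmb8, Psmb9 and Psmb10, which gives the immunoproteasome. Its peptides are carried into the endoplasmic reticulum by the transporter made of Tap1 and Tap2, and are loaded there onto class I heavy chains paired with B2m. The loaded complex is displayed at the cell surface to CD8 T cells.

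Psmb10 was the 1 gene of the set that stood clearly below the wild type, at 3.31-fold less signal. B2m was the furthest above it, at 1.49-fold more, and the other 8 genes lay within 0.3 log2 of no difference, as did 94.7% of all detected genes. Log2 ratios below are of mutant over wild type after normalisation, so that 0 is no difference. A change was counted when the mean of both arrays was at least 2-fold and each array showed at least 1.5-fold the same way. By this rule 1 of 10 genes, Psmb10, was lower and none was higher. Among all 16513 detected genes 0.151% were lower and 0.23% were higher. The contrast that chose the genes is the one counted here, so nothing is read from these shares. The median ratio of the 10 genes was 0.01, against 0.00 for all detected genes, and it was 0.02 with Psmb10 left aside.

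All 17 probes were well above background in all 4 channels and none was saturated. Taken by array, 4 genes were above 0 on both arrays (Psmb8, Tapbp, B2m and H2-K1), 3 were below 0 on both (Psmb9, Psmb10 and Psme2), and 3 changed sign between the arrays (Psme1, Tap1 and Tap2). Of all detected genes, 32.5% were above 0 on both arrays and 30.5% were below 0 on both. Ratios of all detected genes correlated between the arrays at a Pearson's r of 0.72 and a rank correlation (Spearman's rho) of 0.43 across genes, which are not independent replicates. The technical SD of a mean ratio, estimated from the difference between the arrays, ran from 0.07 in the dimmest class of genes to 0.10 in the brightest.

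**Figure D1:**
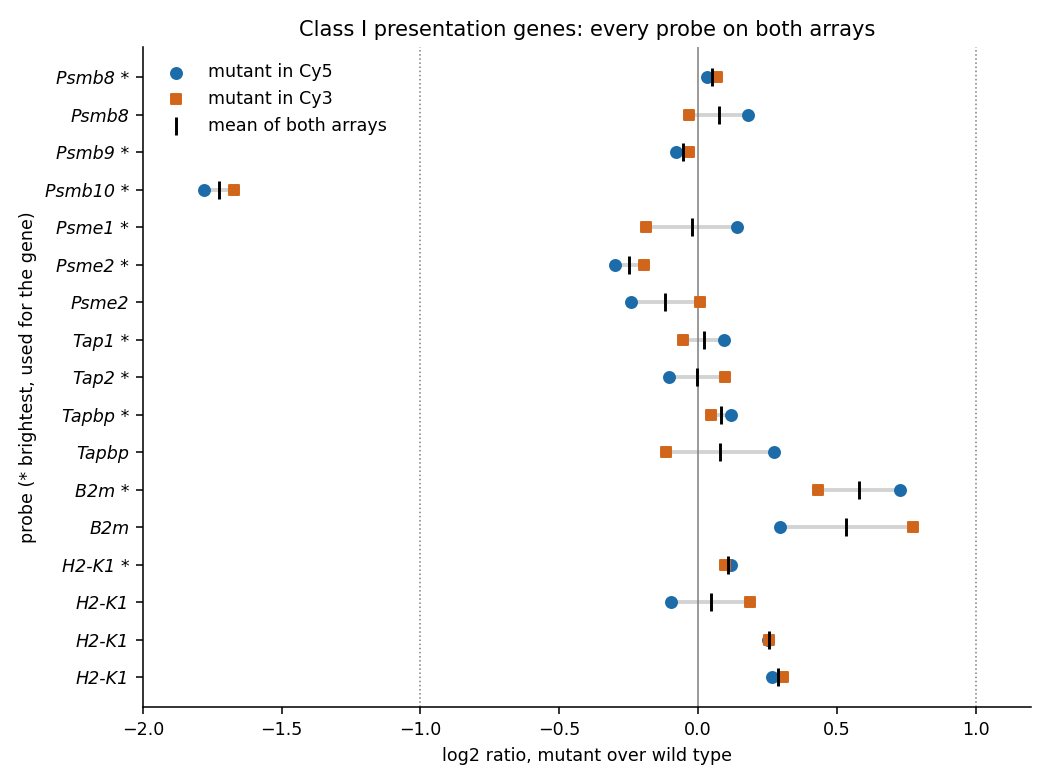
Log2 ratio of mutant over wild type (x axis) for each of the 17 probes of the 10 genes (y axis), on both arrays and as their mean. The Psmb10 probe sits at -1.78 and -1.67, and both B2m probes lie above 0 on both arrays.

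The arrays also described the tissue as a whole. Markers of islet cells were low in the mutant (7 of 7 below 0 on both arrays, median -2.12). By the probe used for each gene, those of skeletal muscle were high (7 of 7, median 3.29). The muscle marker Myh8 was at 3.29 by that probe and at 0.06 by its other. Markers of macrophages and granulocytes were above 0 in 9 of 9, also by the probe used for each gene. Endothelial markers were below 0 on both arrays in 5 of 6, with a median of -0.35. Of the 8 acinar markers detected, 4 were saturated in all channels, and the other 4 ranged from -1.11 (Ctrl) to 1.93 (Gp2). The Glis3 probe gave ratios of -0.02 and 0.01, and whether it lies inside what the allele changes is unknown, so it does not check the labels. In bulk RNA of this kind, fewer cells of a type and less RNA per cell cannot be told apart.

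Promoter sequences are shown for the gene that was low, Psmb10, and for the 3 genes whose windows held a searched motif. Psmb8, B2m and H2-K1 are those genes. Each is the 250 bases before a RefSeq start, 5′ to 3′ along the gene's own strand, in the GRCm38.p6 build. The windows are chr8:105938393-105938642 (minus strand) for Psmb10, chr17:34197945-34198194 (plus) for Psmb8, chr2:122147437-122147686 (plus) for B2m and chr17:34000348-34000597 (minus) for H2-K1. Capitals mark motif matches.
Psmb10: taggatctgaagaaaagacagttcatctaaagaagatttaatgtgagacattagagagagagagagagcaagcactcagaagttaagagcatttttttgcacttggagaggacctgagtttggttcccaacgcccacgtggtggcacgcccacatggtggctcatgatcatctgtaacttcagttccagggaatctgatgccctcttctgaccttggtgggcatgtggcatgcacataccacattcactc
Psmb8: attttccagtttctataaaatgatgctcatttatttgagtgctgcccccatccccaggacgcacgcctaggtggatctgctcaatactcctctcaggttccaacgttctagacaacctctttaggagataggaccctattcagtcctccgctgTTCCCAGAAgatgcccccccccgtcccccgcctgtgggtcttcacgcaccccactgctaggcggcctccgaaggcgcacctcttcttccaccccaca
B2m: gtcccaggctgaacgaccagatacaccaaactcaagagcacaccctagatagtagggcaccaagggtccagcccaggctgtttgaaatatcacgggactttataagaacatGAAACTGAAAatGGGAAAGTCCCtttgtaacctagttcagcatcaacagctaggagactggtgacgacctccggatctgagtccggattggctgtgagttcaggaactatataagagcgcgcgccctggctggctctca
H2-K1: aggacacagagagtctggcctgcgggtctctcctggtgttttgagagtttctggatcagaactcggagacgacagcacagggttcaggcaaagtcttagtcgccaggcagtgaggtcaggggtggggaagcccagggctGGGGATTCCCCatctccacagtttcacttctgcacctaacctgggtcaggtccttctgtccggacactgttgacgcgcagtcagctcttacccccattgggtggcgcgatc

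The motifs were chosen as sites of factors known to act on class I genes and were searched on both strands. They were an interferon response element core (GAAA, any 2 bases, then GAAA), the interferon gamma-activated (GAS) site TTCNNNGAA, a kappaB site (GGGA, any 4 bases, then CC) and the cyclic AMP response element TGACGTCA. Windows were found for 9 of the 10 genes, all but Tap2. They came to 11 windows, since H2-K1 and Psme2 each have a second start. Of all 32851 windows in the RefSeq table, 2.98% held the interferon element, 7.02% the GAS site, 17.6% the kappaB site and 1.55% the cyclic AMP element. The B2m window held the interferon element 139 bases before the start. It also held a pair of overlapping kappaB matches, 127 and 126 bases before the start. H2-K1 held overlapping kappaB matches 111 and 110 bases before the start shown, which are 125 and 124 bases before its second start. Psmb8 held the GAS site 97 bases before its start. None of the 4 motifs was in the Psmb10 window, nor in the 225 bases that lie between the opposed starts of Tap1 and Psmb9 (chr17:34187331-34187555). A match is only a match of letters, and a missing one says only that these letters are not in the window.

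Among the catalytic subunits, Psmb10 takes the place of Psmb7 and carries the trypsin-like site of the immunoproteasome. Its only probe lies at chr8:105231625-105231684 on the minus strand in the coordinates of the array files, of unstated build. The mutant gave a signal of 3253 in Cy5 and 3043 in Cy3, and the wild type gave 12759 in Cy3 and 11499 in Cy5. Both mutant signals were below both wild-type signals, whichever dye was used. The log2 ratio was -1.78 on the first array and -1.67 on the second. The mean was -1.73 ± 0.05 (distance of each array from the mean, 2 arrays), the 11th lowest of all 16513 detected genes.

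Psmb8, which takes the place of Psmb5 and carries the chymotrypsin-like site, did not show such a difference. Its brighter probe, at chr17:31906439-31906763, gave 427 for the mutant and 512 for the wild type on the first array, and 419 and 425 on the second. These raw signals are close in both genotypes, and after normalisation the ratios were 0.03 and 0.07, with a mean of 0.05 ± 0.02. The second Psmb8 probe (chr17:31906382-31906441) gave 0.18 on the first array and -0.03 on the second. Psmb9, which takes the place of Psmb6, was read by 1 probe (chr17:31887861-31887920). Its mutant signals were 401 in Cy5 and 356 in Cy3, and its wild-type signals 523 in Cy3 and 381 in Cy5. The ratios were -0.08 and -0.03, both small and within the technical spread of genes of that brightness.

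The subunits are best read beside those they replace. Psmb7 had a mean ratio of 0.10, and the difference of Psmb10 from it was -1.83 log2 on both arrays. Psmb8 differed from Psmb5 by 0.09 and Psmb9 from Psmb6 by 0.11, the latter with opposite signs on the arrays (0.27 and -0.04). Within the immunoproteasome, the ratio of Psmb10 was lower than that of Psmb8 by a difference of -1.78 and than that of Psmb9 by -1.67. The low value thus belonged to 1 of the 3 immunoproteasome subunits.

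**Figure D2:**
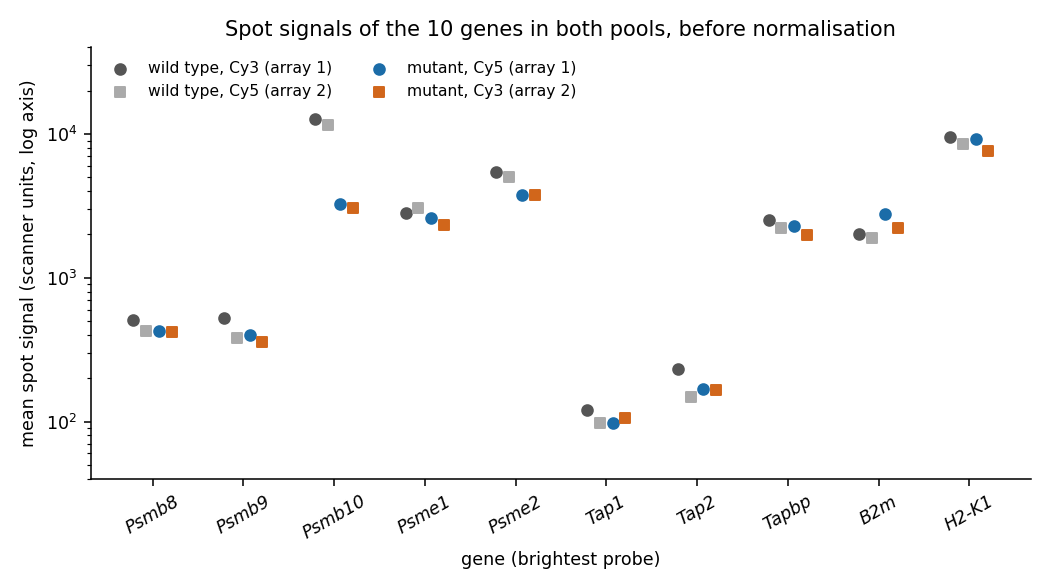
Mean spot signal on a log axis for the probe used for each gene, with the mutant and the wild type in each dye. Psmb10 shows mutant signals of 3253 and 3043 against 12759 and 11499 in the wild type, while in most other genes the 4 points lie close together.

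Psme1 and Psme2 form PA28, the ring that caps the core and is raised by interferon gamma. Psme1 (chr14:50099324-50099383) gave 2608 for the mutant and 2820 for the wild type on the first array, and 2308 and 3034 on the second. Its ratios were 0.14 and -0.19, so the arrays did not share a direction. Psme2 gave 3771 and 5417 on the first array and 3747 and 5036 on the second. Its ratios were -0.30 and -0.19, with a mean of -0.25 ± 0.05, and 5.2% of detected genes were lower or as low. Its second probe, at chr14:50106102-50106299, gave -0.24 and 0.01. Both probes are described in the files under Psme2b, a near copy, but list accessions of Psme2 and are placed on chromosome 14 (the used one at chr14:50105510-50105569), so the copies cannot be told apart. Psme3, which forms a related cap in the nucleus, had a mean ratio of 0.04. The difference of Psme2 from it was -0.54 on the first array and -0.04 on the second.

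Tap1 and Tap2 together make up the peptide transporter, and Tapbp encodes tapasin, which bridges the transporter and the class I molecule. Tap1 (chr17:31899465-31899524) was dim, at 98 and 105 for the mutant and 121 and 97 for the wild type. Its ratios of 0.09 and -0.05 straddle 0. Tap2 (chr17:31920396-31920983) gave 168 and 166 for the mutant and 232 and 148 for the wild type, and its ratios of -0.10 and 0.10 straddle 0 as well. Tapbp was brighter, at 2288 and 1987 for the mutant and 2518 and 2207 for the wild type. Its ratios were 0.12 and 0.05 (probe at chr17:31632821-31632880), and those of a second probe (chr17:31629895-31629954) were 0.27 and -0.11. The mean of Tapbp, 0.08, lay next to that of its relative Tapbpl, 0.09.

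B2m, the light chain that every classical class I molecule needs, was the gene furthest above 0. Its brighter probe (chr2:121666519-121666578) gave 2763 in Cy5 and 2219 in Cy3 for the mutant, and 2004 in Cy3 and 1885 in Cy5 for the wild type. Both mutant signals exceeded both wild-type signals. The ratios were 0.73 and 0.43, with a mean of 0.58 ± 0.15, a 1.49-fold difference that did not reach 2-fold. B2m ranked 92nd highest of 16513 genes. A second probe (chr2:121666643-121666699) gave 0.29 and 0.77. The order of the arrays was the reverse of that of the first probe, and the means, 0.58 and 0.53, were close.

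H2-K1 encodes the heavy chain of the classical class I molecule K. Its brightest probe gave 9276 and 7553 for the mutant and 9554 and 8457 for the wild type, and its ratios were 0.12 and 0.10. That probe is placed at chr17:32970324-32970383, 245 bases from the probe of H2-D1, while the other 3 probes of H2-K1 are placed at chr17:31700167-31700221, chr17:31703582-31703829 and chr17:31703392-31703451. Those 3 had mean ratios of 0.05, 0.25 and 0.29 in that order, and the median without the probe beside H2-D1 was 0.25, against 0.11 as read by the brightest probe. No H2-K1 probe was named by a current RefSeq accession. All 4 were named through an older symbol written in their descriptions, by a rule made for this gene alone. Heavy chains of class I share much of their sequence, and the probe sequences were not used here, so the genes a probe can read were not checked. Read by the probe beside H2-D1, the ratio of H2-K1 lay below that of B2m by a difference of -0.47. That difference was -0.61 on the first array and -0.34 on the second, and it was not taken for the other 3 probes.

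**Figure D3:**
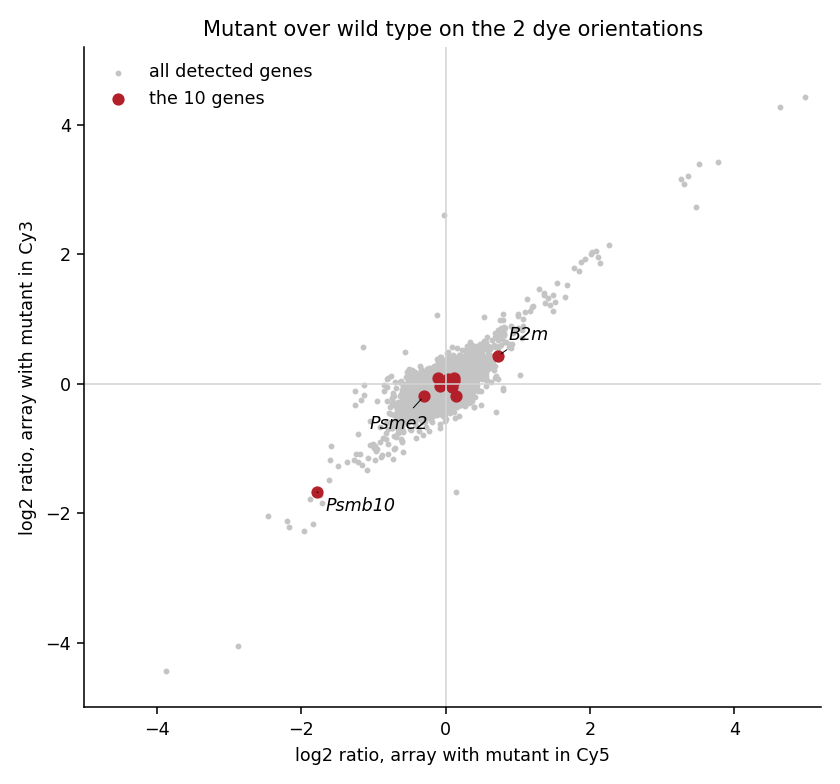
Log2 ratio with the mutant labelled in Cy5 (x axis) against that with the mutant labelled in Cy3 (y axis) for all detected genes, with the 10 genes marked. Psmb10 lies at -1.78 and -1.67, B2m at 0.73 and 0.43, and the other 8 lie in the cloud around 0.

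Genes beside the members on the chromosome were read in the same way. Psmb10 is followed on the same strand by Ctrl, a chymotrypsin-like enzyme secreted by acinar cells, with their probes 3182 bases apart. Ctrl gave 5503 and 4315 for the mutant and 13040 and 11431 for the wild type. Its ratios were -1.08 and -1.15, with a mean of -1.11, so it was lower by the same rule. The other neighbours of Psmb10 lay near 0, with Nrn1l at 0.04, Pskh1 at 0.03, Lcat at 0.09, Slc12a4 at -0.01 and Dpep3 at 0.005. Whether the values of Psmb10 and Ctrl are related was not tested.

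Psmb8, Psmb9, Tap1 and Tap2 lie together inside the class II region of the MHC, a short stretch in which antigen-processing genes of both classes lie side by side. The 4 mean ratios there ran from -0.06 to 0.05. On the flanks, H2-DMa was at 0.11, H2-DMb2 at 0.10 and H2-Ob at 0.02. H2-DMb1 reached 0.58 and H2-Ab1 0.66, though the other 3 probes of H2-Ab1 gave 0.54, 0.37 and 0.16. H2-Aa was at 0.12 by the probe used and 0.37 by its other. None of these genes reached 2-fold.

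**Figure D4:**
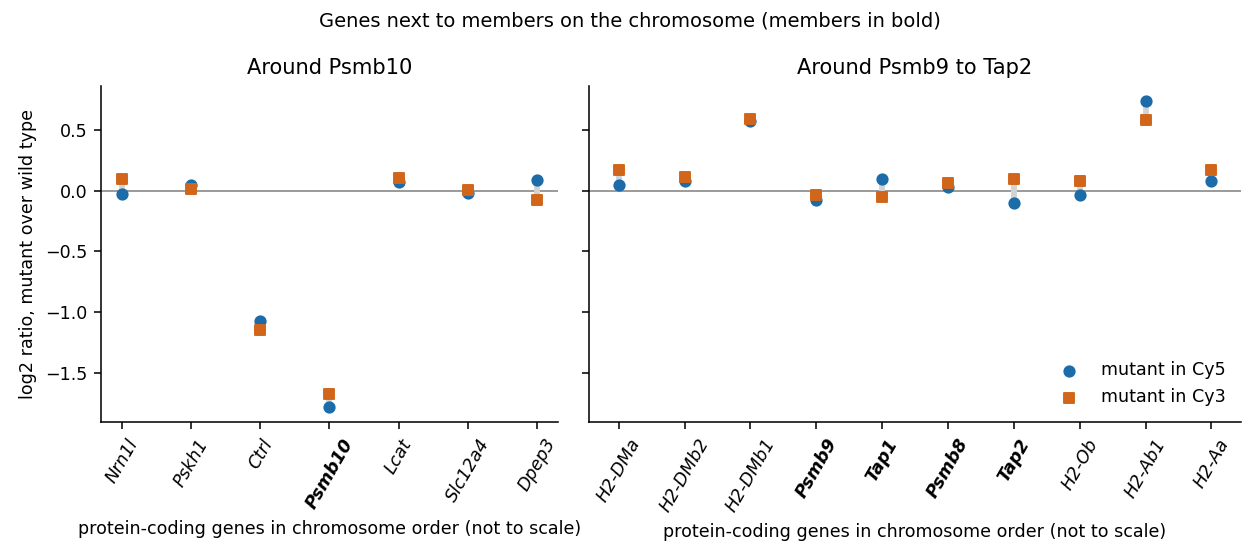
Log2 ratio of mutant over wild type (y axis) for the genes around Psmb10 and around the Psmb9 to Tap2 cluster, in gene order (x axis), on both arrays. Psmb10 and Ctrl are low side by side, at -1.73 and -1.11, while the genes on either side of them lie near 0.

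The rest of the proteasome gives a frame for Psmb10. Of the 14 subunits of the standard 20S core, none was higher or lower by the 2-fold rule. Both arrays put 2 above 0 and 6 below it, beside 32.5% and 30.5% of all detected genes, and the median ratio was -0.05. The largest values were -0.32 for Psma7, -0.17 for Psmb6 and -0.15 for Psmb4. Psmb5 was at -0.04. Of 26 genes of the regulatory caps and of core assembly, none reached the rule. Both arrays put 3 above 0 and 10 below, beside the same shares of all genes, and the median was -0.02. The largest were Psmd3 at -0.19, the inhibitor Psmf1 at -0.18 and the assembly chaperone Psmg1 at -0.18. The ratio of Psmb10 thus lay outside the range of the 14 core subunits, which ran from -0.32 to 0.10.

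The other class I heavy chains and class I-like genes were mostly slightly above 0. Of 19 detected, 12 were above 0 on both arrays and 3 below, beside 32.5% and 30.5% of all detected genes. None of the 19 reached 2-fold, and their median was 0.14. Fcgrt, the neonatal Fc receptor, which also pairs with B2m, was at 0.35. H2-Q5 was at 0.27, by a probe named through its symbol. That probe is placed at chr17:33853180-33853614, near that of H2-T10 and away from the placed probes of the other H2-Q genes. H2-D1, the other classical heavy chain read here, was at 0.24 (0.26 and 0.23). As for H2-K1, which heavy chains these probes can read was not checked. In the same samples, 9 of 9 macrophage and granulocyte markers were above 0 on both arrays by the probe used for each gene. Their median was 0.24, and each was well above background in all 4 channels. Their summed signal before normalisation was 23007 and 18672 in the mutant against 15895 and 14229 in the wild type. Lyz2, a macrophage and granulocyte lysozyme with a ratio of 0.86, carried most of that gap. The other 8 markers summed to 6388 and 5633 in the mutant and 6283 and 5142 in wild-type pancreas, with a median ratio of 0.24. Second probes gave 0.48 for Lyz2, 0.24 for Fcgr3 (0.55 by the one used) and 0.14 for Adgre1 (0.33 by the one used). Csf1r was at 0.30 by the probe used, and at -0.01 and 0.32 by its others. T cell markers were above 0 in 3 of 6 and below in 2, with a median of 0.05, and B cell markers were above 0 in 4 of 5, with a median of 0.11. NK cell markers were above 0 in 1 of 5 and below in 2, and dendritic cell markers above 0 in 2 of 4. The part of these cells in the B2m and heavy chain values was not tested.

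Genes for peptide trimming and loading stayed close to 0. Of 10 detected, none reached the rule, and the median was -0.04. Both arrays put 2 above 0 and 5 below, beside 32.5% and 30.5% of all detected genes. Pdia3, the disulfide isomerase of the loading complex, was at -0.33 (-0.42 and -0.24). The chaperone Calr was at -0.25 by its brighter probe and 0.09 by the other. Canx was at -0.08 by the probe used, and at 0.09 and -0.17 by its others. The trimming peptidase Erap1 was at -0.06, and the cytosolic peptidase Tpp2 at 0.14 by 1 probe and -0.04 by the other.

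Regulators of class I genes and of interferon signalling were detected in 20 of 21 cases, since no probe was named Nlrc5 here. None reached the rule, and the median was 0.02. Both arrays put 6 above 0 and 6 below, beside 32.5% and 30.5% of all detected genes. The largest were Irf8, a factor of myeloid cells, at 0.26, Rela, a subunit of NF-kappaB, at 0.14, and Stat2 at -0.12. Other probes gave 0.11 for Irf8 and 0.09 for Rela. Irf1, which acts on class I and immunoproteasome promoters, was at -0.10 by the probe used and -0.02 by its other.

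Other genes induced by interferon were more often below 0. Of 19, 13 were below 0 on both arrays and 3 above, beside 30.5% and 32.5% of all detected genes, and the median was -0.10. None reached 2-fold. The largest were the ubiquitin-like Isg15 at -0.42 (-0.55 and -0.30), the antiviral gene Ifit3 at -0.38 and the guanylate-binding Gbp3 at -0.33. The Isg15 probe is placed at chr17:43915424-43915483 in the array files. Whether that is the place of the Isg15 gene, and what the probe can read, was not checked. Endothelial markers were also below 0 on both arrays in 5 of 6, by the probe used for each gene. Second probes gave 0.07 for Cdh5, against -0.35 by the one used, and -0.55 for Flt1, the same as by the one used. The summed endothelial signal, before normalisation and not balanced for dye, was 4034 and 3798 in the mutant against 6628 and 5309 in the wild type. The part of endothelial cells in the interferon-induced values was not tested.

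Class II genes, which present peptides from outside the cell, were above 0 on both arrays in 6 of 9, with none below. Of all detected genes, 32.5% were above 0 on both arrays and 30.5% below. The median of the class II genes was 0.12. The largest were H2-Ab1 at 0.66, H2-DMb1 at 0.58 and the invariant chain Cd74 at 0.41. None reached 2-fold, and the macrophage values above stand beside these as well.

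**Figure D5:**
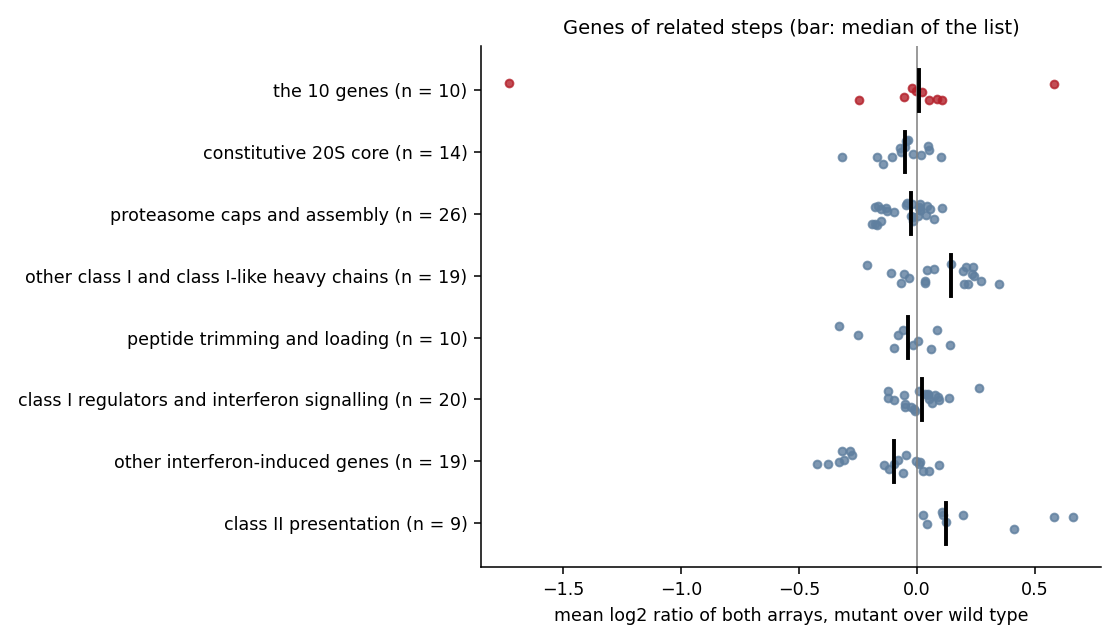
Log2 ratio of mutant over wild type (x axis) for each gene of the 10-gene set and of 7 related gene lists (y axis), with the median of each list marked. Psmb10 at -1.73 lies apart from every other point shown, while the list medians run from -0.10 to 0.14.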

How the data were processed

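Pancreas RNA of mutant and wild-type pups was measured on 2 dye-swapped arrays, so each genotype is 1 pooled sample. Per the file headers, the deposited scanner files hold mean and background intensity values on a linear scale, not normalised, and a software log10 ratio of Cy5 over Cy3. The deposited series table holds log2 values, which match the software's ratio, with the mutant on top, to 0.002 log2 in 99.99% (mutant in Cy5) and 99.98% (mutant in Cy3) of its probes. Per the submitters' processing notes, Feature Extraction 7.5 was used, whereas the file headers record 8.5.1.1. No build of the probe coordinates is named.

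Intensities were background-corrected by normexp (offset 50) and loess-normalised within each array with limma 3.58.1 in R 4.3.3 (data.table, version 1.17.8). Control spots had weight 0, and spots flagged as outliers (15 and 53) were left out. Saturated spots were kept, and spots of a probe were averaged. The loess step takes most genes as equal between genotypes, and the offset shrinks folds of dim probes. Ratios of mutant over wild type were averaged over the arrays, and a gene was read by its brightest unsaturated probe. Detected means well above background in at least 1 genotype on both arrays. The code was tested on simulated data. Tables and plots used Python 3.11.15, numpy 2.4.6, pandas 2.3.3 and matplotlib 3.10.9.

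Probes were named through the GRCm38.p6 list of RefSeq genes: 22064 by first accession, 142 by another accession, 611 by symbol and 497 by an older symbol, with 17860 unnamed. Promoters are RefSeq's. Median signals per channel were 207 to 265 over backgrounds of 46.5 to 50. The number of arrays, 2, limits the precision.

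Genes named are the 10 members, the 3 largest mean ratios of each related list and any gene past the fold rule, fixed counterparts and regulators, and neighbours in gene order. One regulator that the rule names is not reported here. The members and lists were chosen with earlier results of these data known. Alternatives tried were the software's ratios, the series table's, no offset, median centring, the median over a gene's probes, a 1.5-fold rule, a filter on dim probes, each array alone and, chosen after seeing the data, H2-K1 without the probe beside H2-D1.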

Additional observations from a re-analysis of the deposited data

How the results depend on the processing

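Across 7 alternatives each, the ratio of Psmb10 ran from -1.80 to -1.67 and that of B2m from 0.43 to 0.73, and Psmb10 was the 1 gene past the fold rule in every setting tried. The median of the 10 genes, 0.01 over both arrays, was 0.01 to 0.06 with 1 array left out. Psme1 ran from -0.19 to 0.14 and Tap2 from -0.10 to 0.10, the ends being single arrays. Centring on the array median in place of loess gave Psmb8 0.01, Psmb9 -0.09, Psme2 -0.32, Tapbp 0.01 and H2-K1 0.05. Taking the median over a gene's probes gave H2-K1 0.20, and leaving out the probe beside H2-D1, chosen after seeing the data, gave 0.25. Over all detected genes 38 were higher and 25 lower. These counts were 50 and 44 with the software's ratios or the series table's, 49 and 42 without the offset, 38 and 20 with the median over probes and 88 and 87 with a 1.5-fold rule. The offset of 50 shrinks ratios of dim probes, and among the 10 genes Tap1 and Tap2 have the lowest signals, 97 to 232. One pool per genotype leaves the spread between animals unknown.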

Other observations

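Another 5 probes are described in the files as MHC class I, or list an accession of an H2-K1 probe, but led to no current gene name. They were picked by that wording after the data had been seen, and none reached 1.5-fold on either array. The brightest, at chr17:31700159-31700218, gave 5887 and 5640 in the mutant and 6997 and 5891 in the wild type. Its position overlaps that of an H2-K1 probe, and its ratios were -0.05 and 0.18. A probe at chr17:33050737-33050796 gave ratios of 0.13 and 0.16, one at chr17:35257776-35257956 gave 0.12 and 0.01, and one at chr16:10527191-10527250 gave 0.14 and 0.01. The dimmest, at chr6:94472796-94472855, was below 0 on both arrays, at -0.13 and -0.14.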
